A study of Mus musculus with 6 samples.

Results

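The genes of the platelet-derived growth factor (PDGF) and Kit ligands and receptors were followed in sorted cells made from mouse embryonic stem (ES) cells. There are 8 of them among the 19938 genes measured: the ligand genes Pdgfa, Pdgfb, Pdgfc and Pdgfd, the receptor genes Pdgfra and Pdgfrb, the receptor gene Kit and its ligand gene Kitl. Each was read from the array row that names that gene alone, and each of the 8 had 1 such row. The set was chosen by gene family, with the differences between the 2 sorted fractions already known, chiefly that of Pdgfra. The members' differences in that comparison are therefore descriptions, and no p-value is given for them.

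The ES cells, of the W4/129S6 background, hold the coding sequence of green fluorescent protein (GFP) at the Nkx2-1 locus, so that GFP reports this homeobox gene of the lung, thyroid and forebrain. They were differentiated for 14 days and sorted into a GFP-positive fraction (Nkx2-1 high, genotype label Nkx2-1GFP+, 3 samples) and a GFP-negative fraction (Nkx2-1 low, genotype label Nkx2-1GFP-, 3 samples), and the labels' protocols call the samples biological replicates. Both fractions carry the reporter allele and went through the same differentiation, so the Nkx2-1 low samples are the rest of the culture and not untreated cells. Values are deposited log2 expression values on microarrays, and all differences below are Nkx2-1 high minus Nkx2-1 low on the log2 scale.

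Nkx2-1, the gene sorted on, stood at 7.62, 7.77 and 7.77 in Nkx2-1 high and at 5.42, 5.23 and 5.34 in Nkx2-1 low. The labels give the cell type as ES cells, but the pluripotency genes Pou5f1 (means 3.04 in Nkx2-1 high and 2.98 in Nkx2-1 low) and Nanog (4.10 and 4.04 in the same order) lay under the background level of 4.30. That level is the 95th percentile of 1210 rows of olfactory and vomeronasal receptors, and a gene whose means both lie under it is called not above background. Of the endoderm genes, Foxa2 was above it in both fractions (means 5.74 in Nkx2-1 high and 5.78 in Nkx2-1 low) and Sox17 in neither. Over all genes, 6.0% passed the test between the fractions (limma, Benjamini-Hochberg adjusted p under 0.05), with 2.90% higher and 3.09% lower in Nkx2-1 high.

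PDGFs are secreted dimers that bind receptor tyrosine kinases. PDGF-A and PDGF-C act chiefly through PDGF receptor alpha, while PDGF-B and PDGF-D bind PDGF receptor beta. Receptor alpha is a receptor of embryonic mesenchyme, neural crest and lung fibroblasts, where PDGF-A made by the epithelium drives formation of alveolar myofibroblasts, and receptor beta is known for pericytes and vascular smooth muscle. Kit, a relative of the PDGF receptors, is the receptor for stem cell factor, the product of Kitl, and serves germ cells, melanocytes, mast cells, blood progenitors and interstitial cells of the gut.

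The receptor genes differed from one another. Pdgfra, which encodes receptor alpha, was read at 6.87, 6.57 and 6.16 in the 3 Nkx2-1 high samples and at 8.74, 8.57 and 8.28 in the 3 Nkx2-1 low samples. Every Nkx2-1 high sample lay below every Nkx2-1 low sample, with a gap wider than the spread within either fraction. The means were 6.53 ± 0.36 in Nkx2-1 high and 8.53 ± 0.23 in Nkx2-1 low (SD, n = 3 each), a difference of -2.0 ± 0.17 (SE), which is 3.99-fold lower in Nkx2-1 high. Of the 13404 genes above background in at least 1 fraction, only 9 had a lower difference. In Nkx2-1 high Pdgfra was still well above the background level in all 3 samples. In such bulk samples, fewer cells that express a gene and less RNA per cell cannot be told apart.

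Pdgfrb, which encodes receptor beta, did not share this pattern. It stood at 10.00, 9.75 and 9.29 in Nkx2-1 high and at 9.72, 9.73 and 9.48 in Nkx2-1 low. The fractions overlapped, and the highest and the lowest sample were both Nkx2-1 high. The difference was 0.04 ± 0.16 (SE), with a 95% interval of -0.33 to 0.40. It ran from -0.12 to 0.23 when single samples were left out, so its sign depended on single samples.

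Both PDGF receptor genes were lowest in replicate 3 of either fraction, and so was the ligand gene Pdgfb. Taken on each array, the value of Pdgfra minus that of Pdgfrb was -3.12, -3.18 and -3.13 in Nkx2-1 high and -0.98, -1.16 and -1.20 in Nkx2-1 low. These are differences between 2 array rows and do not give the ratio of the transcripts, but their change between fractions (-2.03) shows the unequal change of the 2 receptor genes. Their SD was 0.03 in Nkx2-1 high, against 0.36 for Pdgfra alone there, and 0.11 in Nkx2-1 low, against 0.23 for Pdgfra alone. This pair of genes was set side by side after their values were seen. Without both samples numbered 3, an alternative chosen after the data were seen, the difference of Pdgfra was -1.93 and that of Pdgfrb 0.15.

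Kit lies next to Pdgfra on chromosome 5 among the genes measured, in the order of the RefSeq gene table. It stood at 5.71, 5.43 and 5.88 in Nkx2-1 high and at 5.79, 5.80 and 5.99 in Nkx2-1 low. The fractions overlapped. The difference was -0.19 ± 0.12 (SE), with a 95% interval of -0.45 to 0.07. Its neighbour on the other side, Kdr, a receptor gene of the vascular endothelium, differed by -0.08 ± 0.09 (SE, limma adjusted p = 0.718). Gsx2, the measured gene on the far side of Pdgfra, was not above background.

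**Figure D1:**
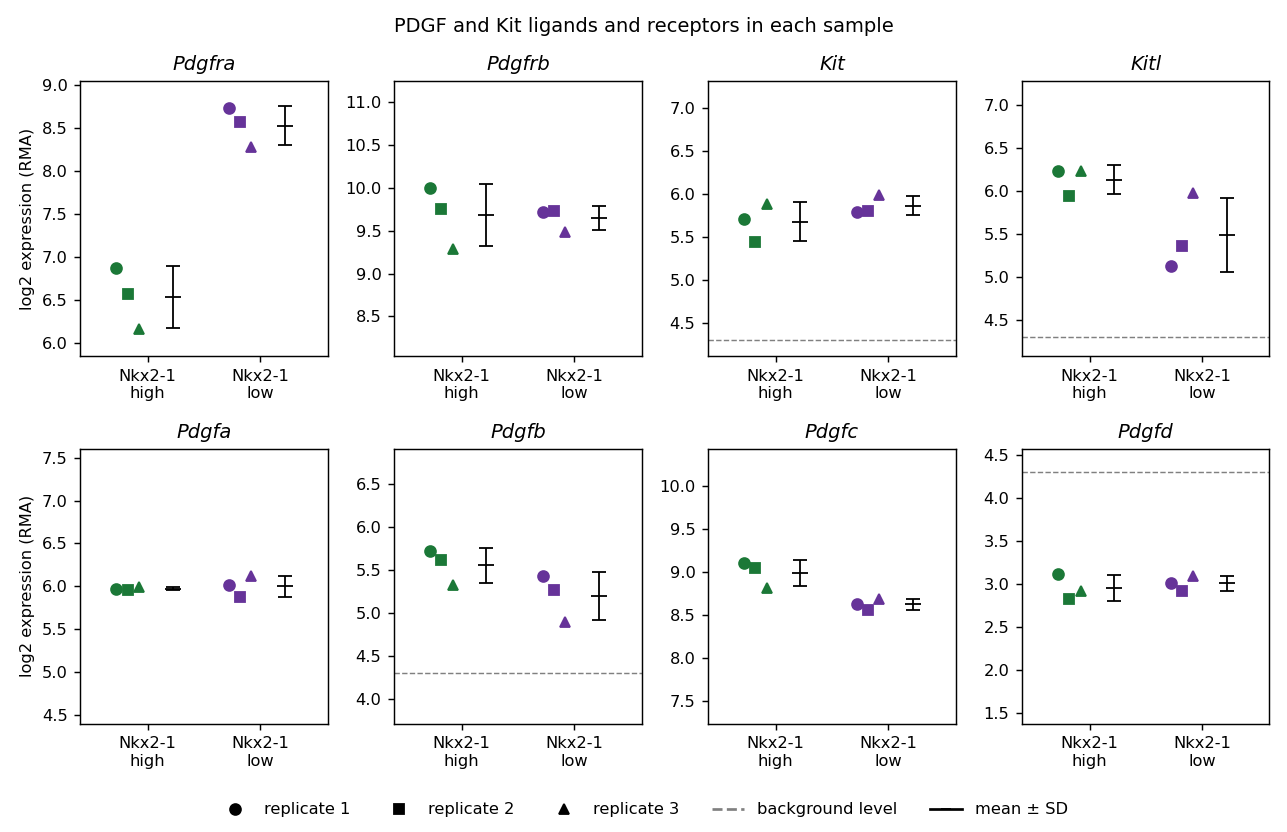
Log2 expression of each of the 8 genes in each sample. Green symbols are Nkx2-1 high and purple symbols Nkx2-1 low, the symbol shape gives the replicate number, and the bars beside them show mean ± SD (n = 3). All panels span the same height on the log2 scale, so differences can be compared between panels but levels cannot. The fractions are apart for Pdgfra and Pdgfc and overlap for the other genes.

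The promoter windows of Pdgfra, Kit and Kitl are printed because they belong to the neighbouring receptor genes that differed in behaviour and to the member with the largest difference above 0. Each runs from 250 bases before to 50 after a transcription start in RefSeq (GRCm38.p6), 5′ to 3′. Windows were matched for 6 of the 8 members, all but Pdgfb and Pdgfrb. Capitals mark matches on either strand to CACTTG, a core bound by NK2-class homeodomain proteins that also fits the E-box letters CANNTG, to the GC box GGGCGG, or to the TATA box TATAAA. Pdgfra lies at chr5:75152001-75152300 on the plus strand, Kit at chr5:75574737-75575036 on the plus strand and Kitl at chr10:100015571-100015870 on the plus strand.
Pdgfra: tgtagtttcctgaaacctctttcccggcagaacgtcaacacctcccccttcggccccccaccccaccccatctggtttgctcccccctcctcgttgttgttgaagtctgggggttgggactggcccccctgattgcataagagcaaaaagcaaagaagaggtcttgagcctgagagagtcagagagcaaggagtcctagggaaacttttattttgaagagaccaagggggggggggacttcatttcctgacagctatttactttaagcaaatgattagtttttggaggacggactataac
Kit: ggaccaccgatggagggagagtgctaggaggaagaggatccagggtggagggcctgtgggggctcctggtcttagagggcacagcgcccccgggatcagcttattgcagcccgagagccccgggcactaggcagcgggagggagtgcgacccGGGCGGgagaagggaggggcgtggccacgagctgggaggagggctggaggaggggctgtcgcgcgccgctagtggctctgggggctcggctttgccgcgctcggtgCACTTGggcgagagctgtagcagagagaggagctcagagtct
Kitl: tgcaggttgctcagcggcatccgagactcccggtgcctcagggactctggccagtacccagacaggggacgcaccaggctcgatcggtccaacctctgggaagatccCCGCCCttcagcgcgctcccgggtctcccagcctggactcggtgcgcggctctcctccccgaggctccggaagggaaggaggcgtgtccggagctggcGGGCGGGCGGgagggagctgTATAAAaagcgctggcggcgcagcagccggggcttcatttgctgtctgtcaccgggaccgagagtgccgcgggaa

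The Pdgfra window held none of the 3 motifs, 5 CpG dinucleotides and 51.0% G and C, close to the median of 52.7% over all 32851 windows. The Kit window printed held 20 CpG dinucleotides and 69.0% G and C, with 1 CACTTG and 1 GC box. A second Kit window, at chr5:75574741-75575040, held 21 CpG dinucleotides, 69.0% G and C and the same matches. The Kitl window was alike in composition, with 28 CpG dinucleotides and 68.7% G and C, and held 3 GC-box matches, of which 2 overlap, and 1 TATA box that begins 25 bases before the start. Over all windows, 13.6% held CACTTG on either strand, 35.7% the GC box and 13.6% the TATA box, and the median number of CpG dinucleotides was 7. Among the other members, the GC box was found in both windows of Pdgfa and the TATA box in that of Pdgfd, and the Pdgfc window held none of the 3. These are matches of letters, and no binding was measured.

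Kitl had the largest difference above 0 among the members. It stood at 6.23, 5.94 and 6.23 in Nkx2-1 high and at 5.13, 5.36 and 5.97 in Nkx2-1 low. The fractions overlapped by 1 sample, since Nkx2-1 low replicate 3 lay just above Nkx2-1 high replicate 2. The means were 6.13 ± 0.17 in Nkx2-1 high and 5.49 ± 0.43 in Nkx2-1 low (SD, n = 3 each), and the difference was 0.65 ± 0.19 (SE, 1.56-fold). Without Nkx2-1 low replicate 3 it was 0.89 and without Nkx2-1 low replicate 1 it was 0.47. Kitl and its receptor gene Kit thus had differences of opposite sign, of which that of Kit was within the spread of its samples.

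The PDGF ligand genes showed smaller differences than Pdgfra. Pdgfc, whose product must be cut by a protease before it can bind receptor alpha, was read at 9.10, 9.05 and 8.81 in Nkx2-1 high and at 8.63, 8.56 and 8.69 in Nkx2-1 low. The fractions did not overlap, and Nkx2-1 high replicate 3 lay closest to the Nkx2-1 low samples. The difference was 0.36 ± 0.09 (SE, 1.29-fold), and 0.48 without both samples numbered 3. The ligand gene and its receptor gene Pdgfra therefore stood on opposite sides of 0.

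Pdgfb, known as a ligand of pericyte recruitment, was read at 5.73, 5.62 and 5.33 in Nkx2-1 high and at 5.44, 5.27 and 4.90 in Nkx2-1 low. The fractions overlapped. The difference was 0.36 ± 0.15 (SE), from 0.21 to 0.47 when single samples were left out. Pdgfa, the ligand gene of lung epithelium, was nearly level, at 5.97, 5.95 and 5.99 in Nkx2-1 high and 6.01, 5.88 and 6.12 in Nkx2-1 low. Its difference was -0.03 ± 0.08 (SE), with a 95% interval of -0.22 to 0.16, and its sign turned when Nkx2-1 low replicate 3 was left out (0.03). Pdgfd was not above background in either fraction, with means of 2.95 in Nkx2-1 high and 3.01 in Nkx2-1 low, and no fold is given for it.

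Of the 8 members, 1 passed the threshold of the fit over all genes, Pdgfra, and it was lower in Nkx2-1 high, beside 3.09% of all genes lower and 6.0% in either direction. In 14 refits under other settings, Pdgfra passed in 14, Pdgfc in 6, Kitl in 3 and Pdgfb in 1, and the other members in none. The fractions did not overlap for 2 members, beside 24.7% of all genes. The median difference of the members was 0.003, against -0.01 over all genes. Nothing is read from these counts, because the members were chosen with this comparison known.

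**Figure D2:**
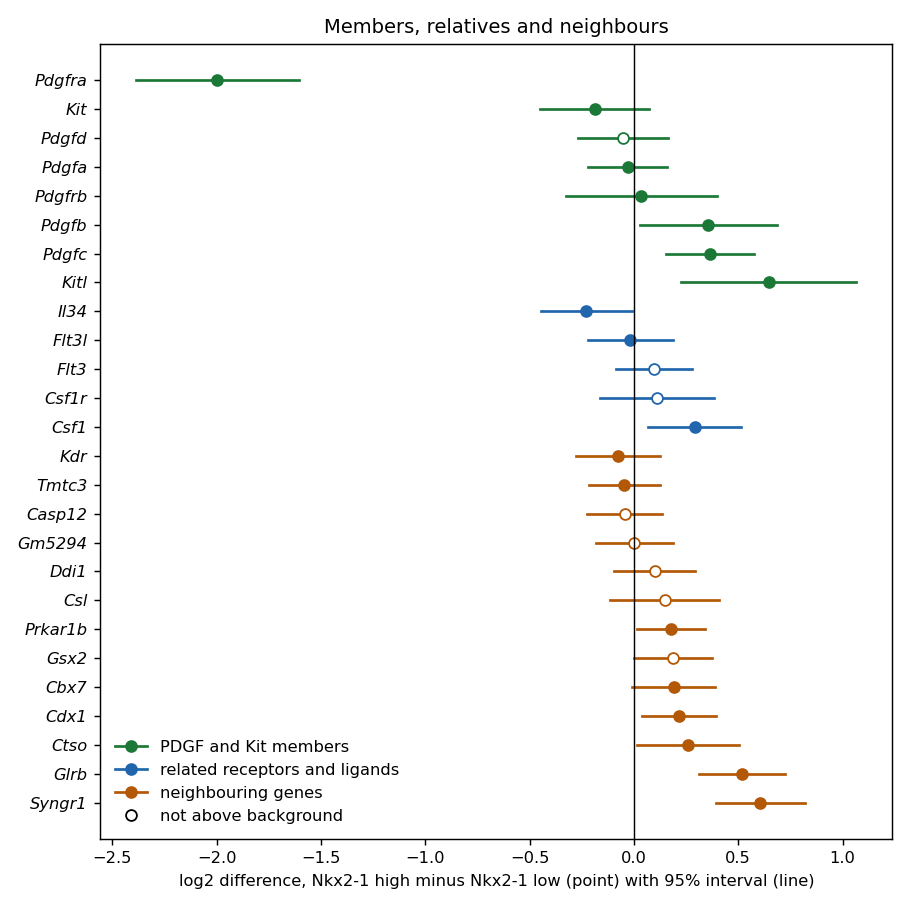
Log2 difference (Nkx2-1 high minus Nkx2-1 low) with its 95% interval from limma for the 8 members (green), the related receptors and ligands (blue) and the measured genes next to the members (orange). Open points are genes not above background in either fraction. Pdgfra stands at -2.0, and Kitl, at 0.65, has the highest difference of the genes plotted.

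The nearest relatives of these receptors were the other kinases of the same class, Csf1r and Flt3, and their ligand genes Csf1, Il34 and Flt3l. By limma 0 of these 5 passed the test, and at an unadjusted p under 0.05 there was 1 higher and 1 lower. The receptor genes Csf1r, of macrophages, and Flt3, of lymphoid and dendritic progenitors, were not above background. Csf1, which encodes a ligand of Csf1r, differed by 0.29 ± 0.10 (SE, limma adjusted p = 0.137) and Il34, which encodes another, by -0.23 ± 0.10 (SE, limma adjusted p = 0.237).

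Among 15 genes of ligand processing and co-receptors, 1 rose, which is 6.67%, near the 6.0% of all genes that passed, with a median difference of 0.06. It was A2m, which encodes a protease inhibitor of plasma that also binds PDGF. Its Nkx2-1 high samples averaged 8.46 ± 0.44 and its Nkx2-1 low samples 7.51 ± 0.27 (SD, n = 3 each), a difference of 0.95 ± 0.21 (SE, limma adjusted p = 0.0260). That call did not survive the removal of Nkx2-1 high replicate 2 (limma adjusted p = 0.0639) or of either Nkx2-1 low replicate 1 or 2 (limma adjusted p of 0.101 and 0.0949).

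Of 37 adaptors and effectors, 30 were measured and the other 7 were not analysed here. In these, 3 rose and 1 fell, 13.3% of the list, against 6.0% of all genes, with a median of 0.05. All 30 were above background, as were the 15 genes of ligand processing and co-receptors. The 6.0% also counts genes not above background. With the fit restricted to the 13404 genes above background in at least 1 fraction, 710 were higher and 800 lower. In that fit 4 of the adaptors and effectors rose and 1 fell. Gab2, an adaptor gene used by Kit and other receptors, was 1.67-fold higher in Nkx2-1 high (0.74 ± 0.10 SE, limma adjusted p = 0.00254). Fyn, a Src-family kinase gene, was 1.41-fold lower (-0.50 ± 0.09 SE, limma adjusted p = 0.00892). The adaptor gene Shc1 rose by 0.40 ± 0.09 (SE, limma adjusted p = 0.0248) and Stat3, which encodes a transcription factor activated by kinases, by 0.42 ± 0.11 (SE, limma adjusted p = 0.0482). The calls of Shc1 and Stat3 were each lost without any 1 sample except Nkx2-1 high replicate 3 (limma adjusted p from 0.0591 to 0.103 for Shc1 and from 0.103 to 0.132 for Stat3), and that of Stat3 also when arrays were centred on their medians (limma adjusted p = 0.0617).

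Of 21 negative regulators of the receptors, 2 rose, which is 9.52% against 2.90% of all genes higher and 6.0% in either direction, with a median of 0.04. These 21 were all above background too, and 2 rose in the fit restricted to such genes. Socs3, a feedback inhibitor of cytokine and kinase signalling, was 1.85-fold higher (0.88 ± 0.14 SE, limma adjusted p = 0.00552), and 0.42 when all array rows of the gene were averaged (limma adjusted p = 0.0193). Dok1, a docking protein gene that restrains Ras, rose by 0.49 ± 0.09 (SE, limma adjusted p = 0.00920), and its call was lost under 1 alternative, without both samples numbered 3.

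Among 16 early response genes, which growth factors such as PDGF and many other stimuli switch on, 6 rose and none fell, which is 37.5% of the list against 6.0% of all genes. Their median difference was 0.27. Fosb was 3.62-fold higher (1.86 ± 0.20 SE), Fos 2.95-fold higher (1.56 ± 0.13 SE), the phosphatase gene Dusp1 2.30-fold higher (1.20 ± 0.08 SE) and Ccn1, a matricellular gene, 1.72-fold higher (0.78 ± 0.08 SE), with limma adjusted p-values from 3.83e-05 to 0.000759. The summed signal of the list ran from 3230 to 3714 in Nkx2-1 high and from 2448 to 2674 in Nkx2-1 low, in linear array units. The 6 that rose did so in the fraction in which Pdgfra was lower, and whether they responded to PDGF was not tested. Egr3 (-0.26 ± 0.09 SE, limma adjusted p = 0.130) and Myc (-0.22 ± 0.11 SE, limma adjusted p = 0.340), both transcription factor genes, had differences below 0.

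**Figure D3:**
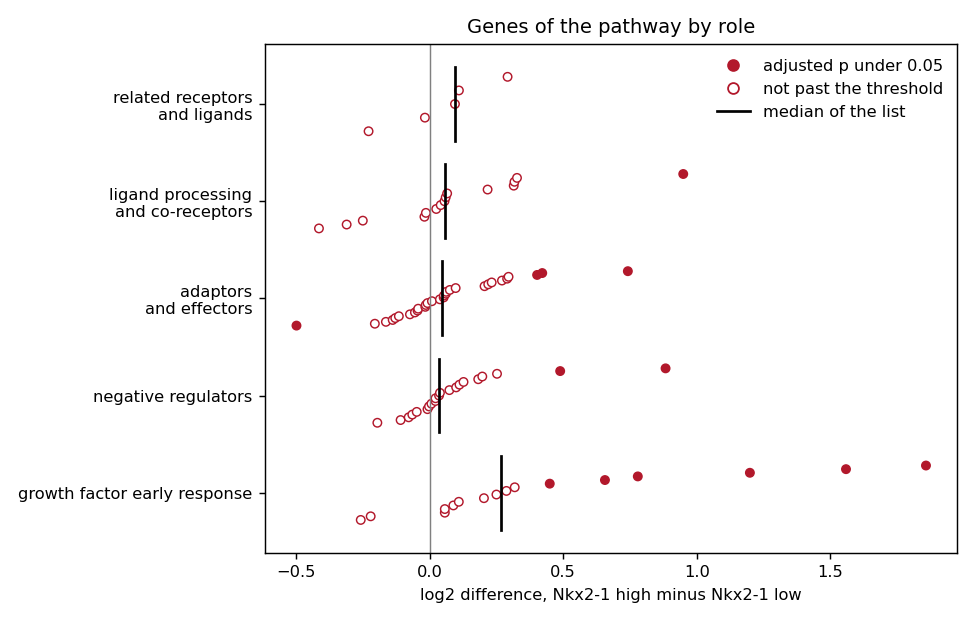
Log2 difference (Nkx2-1 high minus Nkx2-1 low) of every measured gene in the 5 lists of the pathway. Filled points passed the limma test at an adjusted p under 0.05, open points did not, and the vertical bar is the median of the list. The early response list has a median of 0.27 and the other 4 lists have medians from 0.04 to 0.10.

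Cell type markers were set beside the members. Of 10 mesenchyme markers, 6 fell and none rose, which is 60% against 3.09% of all genes lower and 6.0% in either direction. Their median difference was -0.92, and 8 differences lay below 0 and 2 above. The matrix gene Postn (-2.34 ± 0.16 SE), the homeobox gene Prrx1 (-1.90 ± 0.14 SE) and the collagen genes Col1a2 (-1.50 ± 0.08 SE) and Col3a1 (-1.11 ± 0.14 SE) were lower in Nkx2-1 high, with limma adjusted p-values from 1.70e-05 to 0.00179. The summed signal of this list ran from 1969 to 2423 in Nkx2-1 high and from 4762 to 5778 in Nkx2-1 low, and 1 of the 10, Dpt, was not above background. The fall of the 6 called mesenchyme markers thus moved with that of Pdgfra, and its part in the difference of Pdgfra was not tested.

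Of 11 markers of mural cells, the cells known for receptor beta, limma called 0, and those with an unadjusted p under 0.05 were 3 higher and 1 lower. Their summed signal ran from 896 to 919 in Nkx2-1 high and from 845 to 880 in Nkx2-1 low, and Des was not above background. Rgs5 differed by -0.53 ± 0.18 (SE, limma adjusted p = 0.149, and -0.28 without Nkx2-1 low replicate 1) and Acta2 by 0.31 ± 0.11 (SE, limma adjusted p = 0.152). Of 6 markers of oligodendrocyte precursors, another cell type with receptor alpha, 0 passed by limma, and 0 had an unadjusted p under 0.05. Olig1 differed by 0.17 ± 0.09 (SE, limma adjusted p = 0.347) and Sox10 by 0.16 ± 0.08 (SE, limma adjusted p = 0.346). The mean of Olig1 was 4.31 in Nkx2-1 high, close to the background level of 4.30, and 4.14 in Nkx2-1 low, under it. Gpr17 was not above background.

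Receptor alpha also marks extra-embryonic endoderm. Of 8 markers of that tissue, limma called 0, those with an unadjusted p under 0.05 were 2, both lower, and Sox7, Sox17 and Ttr were not above background. Dab2 differed by -0.40 ± 0.13 (SE, limma adjusted p = 0.110), by -0.26 without Nkx2-1 high replicate 3 and by -0.06 when all its array rows were averaged. Kit is used with Cxcr4 to sort definitive endoderm. Of 6 markers of that tissue 1 fell, the adhesion gene Epcam (-0.81 ± 0.11 SE, limma adjusted p = 0.00300), which is 16.7% against 6.0% of all genes. The list was split, with 3 differences above 0 and 3 below, and a median of -0.003. Before adjustment, the limma p was also below 0.05 for 1 marker with a difference above 0. The summed signal ran from 678 to 744 in Nkx2-1 high and from 613 to 704 in Nkx2-1 low. Sox17 and Cer1 were not above background.

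Markers of the cells known for Kit were set beside it next. Among 6 mast cell markers, only Hdc was above the background level, and only in Nkx2-1 high (difference 0.42 ± 0.14 SE, limma adjusted p = 0.120). By limma 0 of the 6 passed, and 1 was higher at an unadjusted p under 0.05. Among 6 markers of the melanocyte lineage Mitf rose (0.82 ± 0.11 SE, 1.77-fold, limma adjusted p = 0.00280), by 0.45 when all its array rows were averaged (limma adjusted p = 0.0173). That is 16.7% of the list, against 6.0% of all genes. Its differences were split, 3 above 0 and 3 below, with a median of -0.02. Tyr, Tyrp1 and Dct were not above background. Of 6 germ cell markers Tfap2c, which other tissues also express, fell (-2.11 ± 0.21 SE, limma adjusted p = 0.000416), and Ddx4, Dazl and Dppa3 were not above background. The germ cell list thus also had 16.7% called, against 6.0% of all genes. Of its differences 3 lay above 0 and 3 below, with a median of -0.03. At an unadjusted limma p under 0.05, 1 germ cell marker was higher and 2 were lower. Of 6 blood progenitor markers 0 passed by limma and 0 had an unadjusted p under 0.05, with Ptprc and Spi1 not above background, Tal1 at 0.18 ± 0.10 (SE, limma adjusted p = 0.393) and Gata1 at 0.15 ± 0.08 (SE, limma adjusted p = 0.316).

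Both of the 2 markers listed for interstitial cells of Cajal rose (100%), against 2.90% of all genes higher and 6.0% in either direction. Ano1, a chloride channel gene, was 1.86-fold higher (0.89 ± 0.14 SE, limma adjusted p = 0.00548) and Etv1, a transcription factor gene, 1.59-fold higher (0.67 ± 0.11 SE, limma adjusted p = 0.00595). Other tissues express both genes, and Kit itself differed by -0.19 ± 0.12 (SE). Of 6 endothelial markers Tek, a receptor gene, rose, at least 1.73-fold against the background level (limma adjusted p = 0.000999). That is 16.7% of the list, against 6.0% of all genes. The list was split, with 3 differences above 0 and 3 below, and a median of 0.13. At an unadjusted limma p under 0.05, 3 were higher and 1 was lower. Cdh5, an endothelial cadherin gene, lay under the background level in both fractions.

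Of the genes next to the members on the chromosome that are no members themselves, all named in this paragraph, 2 passed. Over all genes 6.0% passed, and nothing is read from so small a count. Syngr1, a synaptic vesicle gene beside Pdgfb, rose by 0.61 ± 0.09 (SE, limma adjusted p = 0.00548), and Glrb, a glycine receptor gene beside Pdgfc, by 0.52 ± 0.09 (SE, limma adjusted p = 0.00982), a call of Glrb that was lost without Nkx2-1 high replicate 2 (limma adjusted p = 0.0515). Among the others, Ctso beside Pdgfc differed by 0.26 ± 0.11 (SE, limma adjusted p = 0.228), Cbx7 beside Pdgfb by 0.19 ± 0.09 (SE, limma adjusted p = 0.292), Cdx1 beside Pdgfrb by 0.22 ± 0.08 (SE, limma adjusted p = 0.169), Prkar1b beside Pdgfa by 0.18 ± 0.07 (SE, limma adjusted p = 0.221) and Tmtc3 beside Kitl by -0.05 ± 0.08 (SE, limma adjusted p = 0.812). Gm5294, Casp12, Ddi1, Csl and Csf1r, the rest of the neighbours besides Gsx2 and Kdr, were not above background.

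Profiles most like those of 2 members were sought by the root mean square distance between log2 values over the 6 samples, each gene centred on its own mean, among 12525 protein-coding genes above background. For Pdgfra, the member with the largest difference below 0, the nearest were Prrx1 (distance 0.12), the activin subunit gene Inhba (0.16), the craniofacial homeobox gene Alx1 (0.17), the AP-2 factor gene Tfap2c (0.19) and the aldehyde dehydrogenase gene Aldh1a7 (0.21). Prrx1 stood at 7.47, 7.45 and 6.90 in Nkx2-1 high and at 9.29, 9.18 and 9.07 in Nkx2-1 low, so that it too was lowest in replicate 3 of either fraction. The differences of the 5 genes ran from -2.11 to -1.68, on the side of Pdgfra. Both likenesses follow from the way the genes were chosen.

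For Kitl, the nearest were the BMP antagonist gene Sostdc1 (0.14), the cadherin gene Cdh13 (0.15), Clstn2, which encodes a calsyntenin (0.16), the membrane linker gene Ezr (0.17) and Cd44, which encodes a hyaluronan receptor (0.17). Their differences ran from 0.48 to 0.85. All 5 were highest in Nkx2-1 low in replicate 3, as Kitl was. Both likenesses follow from the way the genes were chosen. Of the 5 genes nearest to each member, 4 were shared with the list after cyclic loess for Pdgfra and 5 for Kitl.

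**Figure D4:**
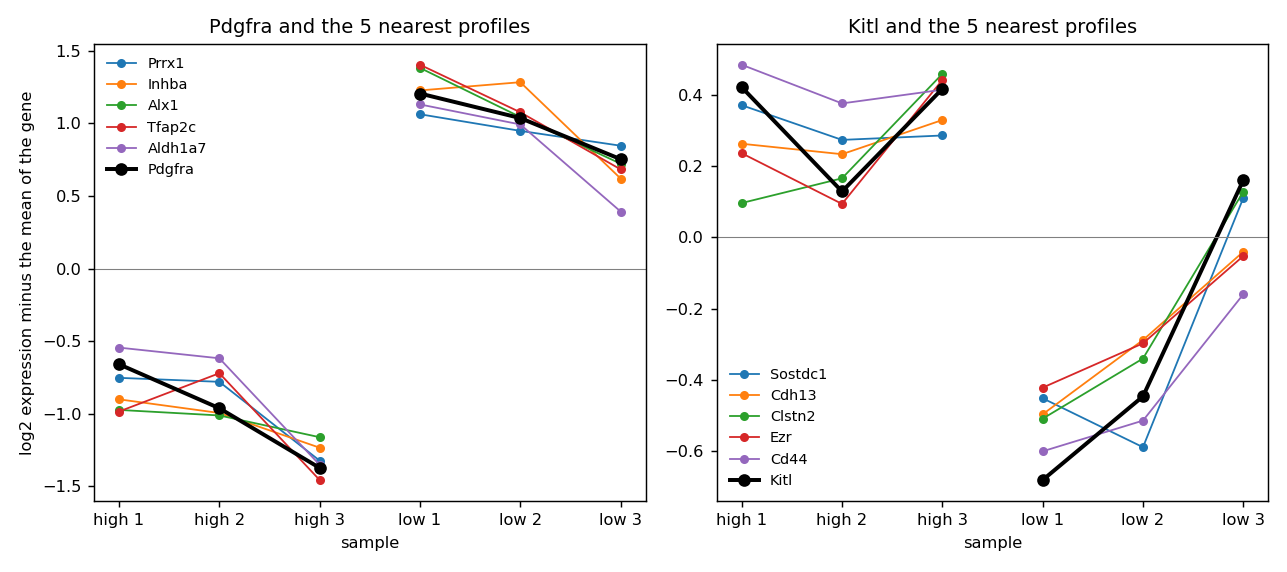
Log2 expression minus the mean of the gene over the 6 samples, for Pdgfra (left, black) and Kitl (right, black) and the 5 genes with the nearest profiles (colours). Lines join the samples of a fraction only to guide the eye, since replicates have no order. For Pdgfra and its 5 nearest genes all Nkx2-1 high samples lie below all Nkx2-1 low samples, while Kitl in Nkx2-1 low is highest in replicate 3.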

How the data were processed

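RNA of 6 samples was amplified by WT-Ovation Pico and biotin-labelled for Affymetrix arrays, per the labels' protocols. The authors deposited log2 expression values per array row, made with RMA per the submitters' processing notes, with array medians from 4.98 to 5.06. The log2 scale is inferred from RMA and the range of the values. RMA's version is not given in the sources used here, nor is a genome build. Scan date and slide were not tested as batches. Precision is limited by the number of arrays, 3 a fraction.

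Of 29011 rows, 21789 carried a single symbol in the platform annotation, and the row with the highest mean per gene gave 19938 genes. Each gene was fitted by lmFit and eBayes of limma 3.58.1 (R 4.3.3), with group alone in the model. P-values were Benjamini-Hochberg adjusted over all 19938 genes and the threshold was 0.05. The script was tested on simulated data. Where 1 fraction lay under the background level of 4.30, the fold was taken against that level and is written as "at least". Linear signal is the log2 value raised back. Figures were drawn with matplotlib 3.10.9.

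The members, the 5 pathway lists (94 entries, 87 measured) and the 11 marker lists were chosen with earlier results of these data known. Named by rule were the members, for each list the called genes of largest difference (up to 4, or 2 uncalled ones where none passed), the neighbours, the 5 nearest profiles of 2 members (predicted models, small RNAs and chemosensory receptors left out) and Nkx2-1. Other names, such as markers not above background, were picked once values were known. Settings varied 1 at a time were the centring of arrays on their medians, cyclic loess, a restriction to genes above background, a robust fit with a mean-variance trend, weighting of arrays, a block for the replicate number, averaging the rows of a gene, a threshold of 0.01, and each sample removed in turn. Removal of both samples numbered 3 was added after seeing the data.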

Additional observations from a re-analysis of the deposited data

How the results depend on the processing

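The difference of Pdgfra ran from -2.17 to -1.81 when single samples were left out, as a description of these samples. With single samples left out, Kit ran from -0.29 to -0.07 and Kitl from 0.47 to 0.89. Pdgfc moved to 0.48 without both samples numbered 3.

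Over all genes, 579 were higher and 617 lower. With single samples left out these counts ran from 340 to 571 and from 284 to 515, and a threshold of 0.01 gave 286 and 221. Without both samples numbered 3, 407 were lower and 1 negative regulator rose. Ligand processing and co-receptors had 3 calls higher, in place of 1, under cyclic loess, genes above background, the trend and array weights, 2 under the block, 0 at the threshold of 0.01 and 0 to 1 with single samples left out. Lower calls there were 2 among genes above background and 1 under the block. Adaptors and effectors had 1 call higher at the threshold of 0.01 and 1 to 3 with single samples left out. Over the named genes that are no members, 16 calls were lost and 3 gained in 664 refits, and 645 kept their side of the threshold. Without both samples numbered 3, Kdr and Tmtc3, neither of them called, had differences of 0.02 each, Ctso and Tal1 of 0.12, Il34 of -0.12 and Gata1 of 0.09.

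Samples of the same number correlated in their deviations from the group means at 0.181, -0.004 and 0.277 across genes. Samples of unlike number correlated at -0.269 to 0.146. These values do not settle whether the numbers mark pairs. No source used here names a pairing, so the main fit has no block. With a replicate block 708 genes were higher and 762 lower. Rgs5 (limma adjusted p = 0.0360) and Dab2 (limma adjusted p = 0.0377) passed with that block. The members Pdgfb and Kitl, not called in the main fit, were past the threshold with it too. Nothing is read from that, because the members were chosen with this comparison known. Deviations of Nkx2-1 high replicate 2 correlated best with Nkx2-1 low replicate 1.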
